A study of Mus musculus with 2 samples.

Results

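The 10 genes described here encode the AP-1 transcription factors and their closest relatives: Fos, Fosb, Fosl1 and Fosl2 of the Fos family, Jun, Junb and Jund of the Jun family, and Atf3, Batf and Batf3. They were taken by name from the 21938 protein-coding genes of GENCODE M21 on mm10, and all 10 were found. AP-1 is a pair of basic leucine zipper (bZIP) proteins, usually a Fos protein bound to a Jun protein, that together grip DNA. Several of these genes are immediate early genes, which cells switch on within minutes of a stimulus and without making new protein first. In macrophages, AP-1 works beside NF-kB on inflammatory genes, Atf3 restrains that response, and Batf and Batf3 are better known from lymphocytes and dendritic cells.

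The mark mapped was H3K79me2, dimethylation of a lysine on the core of histone H3, which the enzyme Dot1l lays down over transcribed genes as RNA polymerase II moves away from the promoter. Chromatin immunoprecipitation and sequencing was done on unstimulated primary macrophages grown from bone marrow, of the mouse strain C57BL/6J. There were 2 libraries, labelled as biological replicates 1 and 2 and each begun from 10 ng of DNA. The labels give both the same donor and do not say whether they came from separate animals or cultures, and neither sex nor age is given. With 1 group of 2 libraries no test between conditions was possible, and every value below is a description.

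The authors deposited 4 peak lists: 1 for each replicate, 1 called on the pooled reads, and a replicated list made from both. Replicate 1 had 22979 peaks over 63.5 Mb, replicate 2 had 31577 over 114 Mb, the pooled list had 26838 over 106 Mb and the replicated list 15559 over 93.2 Mb. The lists hold no read counts, so the depth is unknown, and a base without a peak may still carry the mark. In the replicated list macrophage genes carried peaks and those of other cell types did not. Of 8 macrophage markers, 7 were marked and all 8 had bases under the replicated list, against none of 5 T and NK cell, 4 B cell, 5 neutrophil, 4 dendritic cell and 4 fibroblast markers. A gene is called marked here if peaks cover 200 bp or more of its first 3 kb, measured from the most upstream 5′ end in the annotation and stopping at the gene's end.

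Fos, Fosl2, Jun and Junb were marked, and the other 6 genes were not. That is 4 of 10 genes, beside 30.3% of all coding genes in the replicated list, so the share itself does not set these genes apart. The same 4 were marked in replicate 1 (27.2% of coding genes) and in the pooled list (34.3%), and Batf joined them in replicate 2 (35.6%). The pooled list is no separate check, as its blocks over these 4 genes are those of the replicated list. Counting any annotated transcript 5′ end brought in Atf3, for 5 of 10 beside 32.9%. Counting 200 bp anywhere in the gene brought in Fosl1 as well, for 6 of 10 beside 33.9%. By family, 2 of 4 Fos genes, 2 of 3 Jun genes and none of the 3 Atf3 and Batf genes were marked at the outermost 5′ end. Fosb, Jund and Batf3 had no base under any of the 4 lists.

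**Figure D1:**
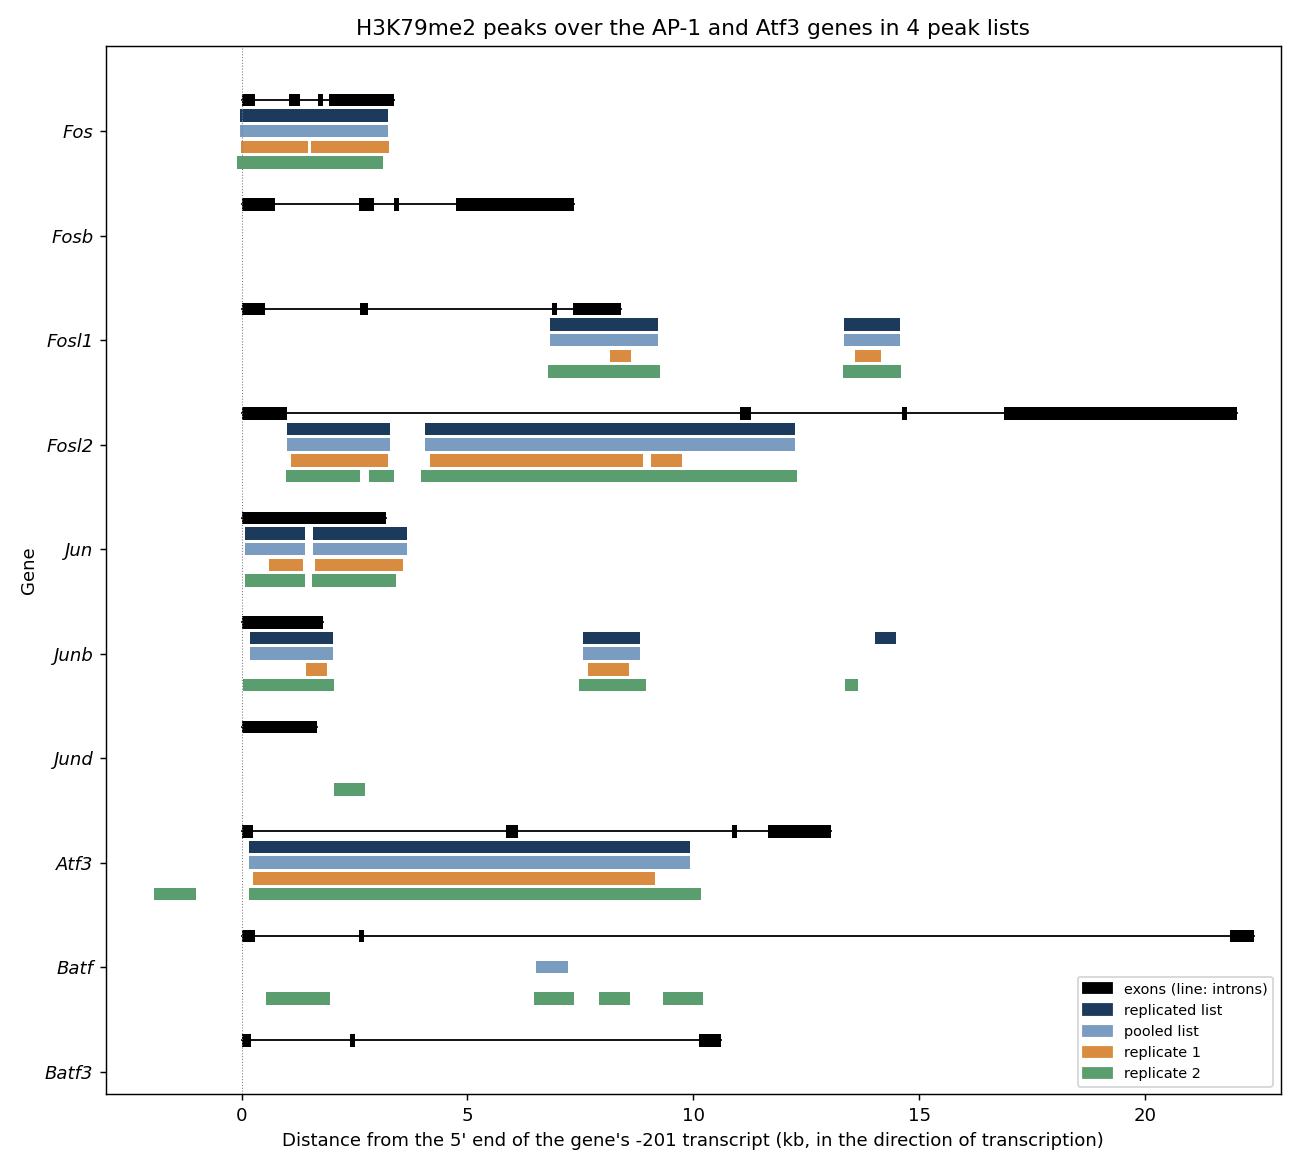
Peaks of the 4 lists (coloured bars) under the exons (black boxes) and introns (lines) of each gene, by distance in kb from the 5′ end of its first-numbered GENCODE transcript; for Atf3 this is the inner start, and its outer start lies off the plot. Peaks of the replicated list cover most of Fos, Jun and the coding transcript of Junb, much of the first intron of Fosl2 and most of Atf3 as far as exon 3, meet Fosl1 only at its far end, and are missing from Fosb, Jund, Batf and Batf3.

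Promoters are shown for 3 genes with a block of H3K79me2 close to the start and for Fosb, which has none. Each sequence below is the 250 bases before the RefSeq start (GRCm38.p6), 5′ to 3′ on the gene's own strand, and capitals mark 3 motifs found on either strand. These are TATAAA in Fos, the letters TGACGT in Fos and Atf3, and the related TGACATCA in Jun. Among promoters not shown, that of the marked gene Fosl2 held none of these motifs. The promoter of Batf, a gene without a peak in the replicated list, held TGACGT. Fos lies at chr12:85473640-85473889 (plus strand), Jun at chr4:95052223-95052472 (minus), Atf3 at chr1:191183334-191183583 (minus) and Fosb at chr7:19310046-19310295 (minus). From the RefSeq start, the block of the replicated list began at -40 bp in Fos, 81 bp in Jun and 158 bp in Atf3.
Fos: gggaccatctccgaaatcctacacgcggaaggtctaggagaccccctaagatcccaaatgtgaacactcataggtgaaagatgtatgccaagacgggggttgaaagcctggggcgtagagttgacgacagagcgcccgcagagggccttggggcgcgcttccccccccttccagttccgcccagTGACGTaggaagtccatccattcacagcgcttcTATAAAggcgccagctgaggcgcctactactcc
Jun: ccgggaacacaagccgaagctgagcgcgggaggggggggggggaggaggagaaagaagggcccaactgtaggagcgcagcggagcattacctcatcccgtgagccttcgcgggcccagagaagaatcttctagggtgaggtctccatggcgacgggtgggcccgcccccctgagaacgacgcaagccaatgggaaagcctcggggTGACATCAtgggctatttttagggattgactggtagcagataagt
Atf3: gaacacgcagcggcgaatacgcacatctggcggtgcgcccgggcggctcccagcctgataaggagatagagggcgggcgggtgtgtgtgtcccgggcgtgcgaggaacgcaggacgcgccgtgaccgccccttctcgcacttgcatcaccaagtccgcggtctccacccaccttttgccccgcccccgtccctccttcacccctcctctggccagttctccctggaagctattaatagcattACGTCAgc
Fosb: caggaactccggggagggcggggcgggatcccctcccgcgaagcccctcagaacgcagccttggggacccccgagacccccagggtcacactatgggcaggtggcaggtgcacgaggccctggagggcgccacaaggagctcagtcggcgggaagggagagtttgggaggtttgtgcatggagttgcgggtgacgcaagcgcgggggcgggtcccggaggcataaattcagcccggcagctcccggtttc

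Of the 10 genes, 9 were in the RefSeq promoter table, all but Fosl1, and motifs were searched on both strands from 250 bases before to 50 after the start. In Jund this RefSeq start lies 1210 bp upstream of the outermost GENCODE start. In Fosl2 and Batf3 it lies 671 and 567 bp downstream, and in Atf3 it is at the inner start. The full AP-1 site TGACTCA was in none of the 9, beside 5.20% of 32851 promoters in the table. Nor did any hold the cyclic AMP response element TGACGTCA (1.79% of promoters), the CArG box bound by serum response factor (1.63%) or the Ets and PU.1 letters GAGGAAGT (3.20%). TATAAA lay from -33 to -28 in Fos and from 1 to 6 in Junb, and was in 13.6% of promoters. After the sequences had been seen, the shorter letters TGACGT, which lie within the cyclic AMP response element, were also searched. They were found from -66 to -61 in Fos, from -98 to -93 in Batf and, on the other strand, from -8 to -3 in Atf3 (7.51% of promoters). TGACATCA, likewise chosen after the sequences had been seen, lay from -45 to -38 in Jun (3.62%). A match of letters is not evidence of binding. Sites further from the start were not searched, so a motif missing here may lie elsewhere near the gene.

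The 500 bp on both sides of the outermost 5′ end were CpG-rich in 8 of the 10 genes, meaning here that GC made up 50% or more of the bases and that CpG reached 0.6 or more of the number their C and G content predicts. The 4 marked genes were all among these 8, beside 54.1% marked of the 9738 coding genes with such an end. Among the marked genes the ratio was 0.725 in Fos, 0.863 in Fosl2, 0.797 in Jun and 0.724 in Junb. Jund (0.882) and Fosb (0.838), neither of which carried a peak, had ratios within or above that range. The remaining unmarked genes of the 8, Fosl1 (0.663) and Batf3 (0.636), had ratios below it. The exceptions were Batf (0.340) and the outer end of Atf3 (0.248). The inner start of Atf3, where its block begins, was CpG-rich at 0.756. Among coding genes under 5 kb long, 15.2% of 4140 were marked, and 40.6% of the 1112 of these with a CpG-rich end. Fos, Jun, Junb and Jund are in that class, and 3 of the 4 were marked.

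Fos, the prototype member whose protein cannot pair with itself and needs a Jun partner, was covered nearly end to end. The gene runs on chromosome 12 from 85473890 to 85477273 on the plus strand, has 4 exons and overlaps no other annotated gene. Peaks covered 3242 of its 3384 bp (95.8%) in the replicated and pooled lists, 3201 bp in replicate 1 and 3138 bp in replicate 2. The replicates were therefore nearly equal in extent, and 3069 bp were covered in both. In the replicated list the block ran from 85473850 to 85477131, beginning just before the start and ending inside exon 4. It took in all 1140 coding bases and 1276 bp of intron. Replicate 1 had 2 peaks there with a gap of 69 bp, whereas replicate 2 had a single peak. The summit lay 911 bp in, before exon 2, and the summits of the replicates, at 1009 and 901 bp, were 108 bp apart.

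Jun encodes c-Jun, the partner that can also pair with itself, in a single exon of 3189 bp on chromosome 4 from 95049034 to 95052222 (minus strand). Covered bases came to 2933 bp (92.0%) in the replicated and pooled lists, 2309 bp in replicate 1 and 2961 bp in replicate 2. In replicate 1 the first peak began 611 bp into the gene, against 73 bp in replicate 2, and the gap inside the gene was wider. All 4 lists split the gene into 2 peaks. The downstream peak had the higher fold in each list and ran past the gene's end, by 486 bp in the replicated list, 385 bp in replicate 1 and 225 bp in replicate 2. The antisense gene Junos starts inside Jun, 688 bp from its 5′ end, and runs the other way. Peaks have no strand, so those over the shared 689 bp cannot be assigned to either gene.

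The split in Jun fell at the same place in both replicates. The gap spanned 175 bp in the replicated list, 1407 to 1581 bp from the start, 269 bp in replicate 1 and 155 bp in replicate 2. The narrowest of these lay inside the others, and all of them were coding sequence. The 175 bp are shown because this is the only stretch inside the gene, after its first 81 bp, that the replicated list leaves uncovered. They lie at chr4:95050641-95050815 on mm10, and are printed 5′ to 3′ on the minus strand with no letters marked.
Jun gap: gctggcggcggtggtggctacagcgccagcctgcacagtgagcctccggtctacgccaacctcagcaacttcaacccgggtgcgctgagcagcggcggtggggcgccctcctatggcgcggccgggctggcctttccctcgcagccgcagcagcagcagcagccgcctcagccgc
The GC content of the gap was 72.6%, against 63.2% in the peak before it and 46.1% in the peak after it. Bases masked as repeats made up 16.6% of the gap, against 6.71% and 12.5% of those peaks. In each replicate's own list, the gap's share of such bases lay between those of its peaks. Whether base composition or mapping had a part in the gap was not tested.

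Junb encodes the Jun protein that often acts against c-Jun, and was the gene on which the replicates differed most among those marked. Its coding transcript is a single exon of 1809 bp on chromosome 8 from 84976910 to 84978718 (minus strand). The annotation adds a downstream non-coding transcript that stretches the gene to 4235 bp and overlaps Prdx2 by 351 bp. In the replicated and pooled lists, 1840 bp were covered, in a block from 192 bp after the start to 223 bp past the end of the coding transcript. Replicate 2 covered 2010 bp, and replicate 1 only 470 bp near the 3′ end, from 1420 to 1889 bp. That shorter peak lay wholly inside the longer one and held no coding base. The summits were nevertheless 23 bp apart, at 1595 bp in replicate 1 and 1618 bp in replicate 2. A separate peak of 1278 bp further downstream lay inside Prdx2, a peroxiredoxin gene, from 304 to 1581 bp after its start.

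Fosl2 encodes Fra-2, a Fos protein without the strong activation domain of Fos, and was the only marked gene with long introns. It occupies 22042 bp of chromosome 5 from 32135801 to 32157842 (plus strand) and overlaps no other gene. Peaks covered 10455 bp (47.4%) in the replicated and pooled lists, 7532 bp in replicate 1 and 10512 bp in replicate 2. The first block, of 2273 bp, began 1006 bp from the GENCODE start, immediately after exon 1, and 335 bp from the RefSeq start. In replicate 1 it began at 1090 bp, and in replicate 2 at 986 bp, inside the end of exon 1. The second, of 8182 bp, lay in intron 1 from 4062 bp, covered all 252 bp of exon 2 and ended in intron 2, 12243 bp in. No list covered exons 3 or 4. A gap lay between the blocks in every list, 783 bp wide in the replicated list, 945 bp in replicate 1 and 601 bp in replicate 2. Its GC content, 47.5% in the replicated list, was near that of the blocks on its sides (50.3% and 48.5%). Bases masked as repeats made up more of the gap (20.3%) than of those blocks (11.6% and 10.4%). Whether repeats or mapping had a part in this gap was not tested. Replicate 1's last peak ended 9752 bp in, and replicate 2's at 12288 bp.

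The marked genes also differed in how near the start the mark began. In the replicated list the first covered base was 40 bp before the start in Fos, and 81 bp, 192 bp and 1006 bp after it in Jun, Junb and Fosl2. Over all 6658 marked coding genes the median was 317 bp after the outermost 5′ end, with quartiles at 43 and 592 bp. Fos thus began further upstream than most marked genes, with 20.0% of them beginning further upstream still, and Fosl2 later than 89.6% of them. The rank of Fosl2 depends on the start used, since its block began 335 bp from the RefSeq start. Fos began before Jun and Junb in both replicates, while Jun and Junb changed places. Replicate 1 began at 611 bp in Jun and 1420 bp in Junb, and replicate 2 at 73 bp and 39 bp.

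Atf3, which encodes a stress-induced factor that damps Toll-like receptor responses, was bare at its outermost 5′ end and heavily covered from an inner one. The gene spans 47744 bp of chromosome 1 from 191170296 to 191218039 (minus strand). Its outer transcript starts 34699 bp upstream of the principal one, whose start lies 7 bp from that of RefSeq. In the replicated list a single block of 9764 bp ran from 191173412 to 191183175, beginning 165 bp after the inner start and ending before exon 3. It held 240 coding bases, all in exon 2. Covered bases were 8893 bp in replicate 1 and 10955 bp in replicate 2, and every base covered in replicate 1 was covered in replicate 2. The summits, 3820 and 3764 bp from the inner start, were 56 bp apart. Replicate 2 had a further peak of 943 bp upstream of the inner start.

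Fosl1, which encodes Fra-1, carried H3K79me2 only at its far end. The gene lies on chromosome 19 from 5447547 to 5455946 (plus strand), and no list covered any of its first 3 kb. A block from 5454384 to 5456765 covered its last 1563 bp (18.6%) and went on 819 bp past its end. Replicate 1 covered 251 bp of the gene and replicate 2 covered 1605 bp. The gene Ccdc85b runs towards Fosl1 from the opposite strand and overlaps it by 2767 bp. Measured from the start of Ccdc85b, the same block lay 1129 to 3510 bp downstream, and Ccdc85b itself was marked, with 1871 bp of its first 3 kb covered. Which of the 2 genes the block belongs to cannot be told apart, as peaks have no strand.

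Batf had peaks in replicate 2 and in the pooled list, and none in replicate 1 or the replicated list. Its 22419 bp lie on chromosome 12 from 85686669 to 85709087 (plus strand). Replicate 2 had 4 peaks over the gene, with 3895 bp covered in all, and the first ran from 538 to 1968 bp after the start. The pooled list kept only 705 bp, 6525 to 7229 bp in. The 4 peaks ranked from the bottom to the middle of replicate 2's list. Their highest fold, 4.86, was above that of 51.1% of its peaks and their lowest, 2.34, above 0.345%.

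Fosb, Jund and Batf3 were without a peak in every list. Fosb, the Fos gene best known from neurons, lies on chromosome 7 from 19302696 to 19310051, and no list had a peak within 10 kb of it on either side. Batf3, a factor of the dendritic cells that cross-present antigen, lies on chromosome 1 from 191097847 to 191108945 and was likewise bare to 10 kb on both sides. Jund, a single-exon gene often active in resting cells, lies on chromosome 8 from 70698949 to 70700616. Its RefSeq start is 1210 bp upstream of the GENCODE start, and no peak lay between them. The only peak within 10 kb of Jund was one of 693 bp in replicate 2, which ended 1077 bp past the gene, with a fold of 3.41.

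**Figure D2:**
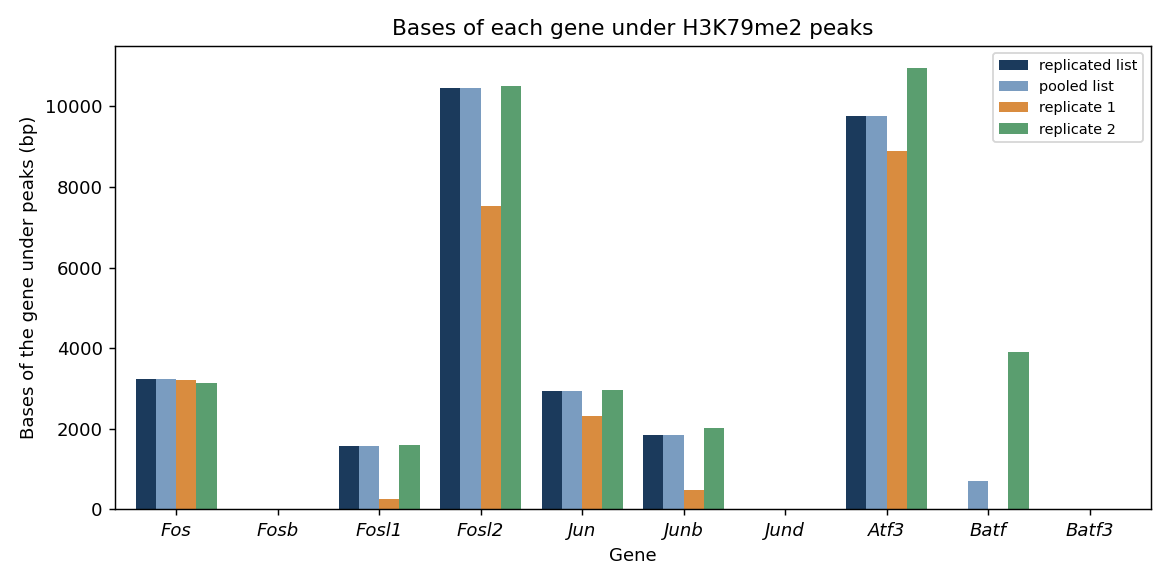
Bases of each gene (bp) under the peaks of each list; bars start at 0. Atf3 and Fosl2 reach 9764 and 10455 bp in the replicated list, Fos, Jun and Junb lie between 1840 and 3242 bp, replicate 1 is the shortest bar for Fosl1, Fosl2, Jun, Junb and Atf3, and Fosb, Jund and Batf3 are at 0 throughout.

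The 6 genes with bases in both replicates had a median ratio of 0.748 for bases covered in replicate 1 over replicate 2. It ranged from 0.156 in Fosl1 and 0.234 in Junb to 1.02 in Fos. Over the 6783 coding genes with bases in both, the median was 0.606 with quartiles at 0.395 and 0.783. Peaks of replicate 1 covered less of the genome as a whole (63.5 against 114 Mb), and the part of this in the ratios was not tested. Fosl1 and Junb lay below the lower quartile, and Fos and Atf3 (0.812) above the upper one. A peak of replicate 1 overlapped one of replicate 2 by at least 1 bp in all 6 genes. Where at least 50% of both peaks had to overlap, Fosl2, Jun and Atf3 remained. Fos dropped out, with its block split by a gap of 69 bp in replicate 1 and whole in replicate 2. Yet 95.9% of its covered bases in replicate 1 and 97.8% of those in replicate 2 were shared. How many of all coding genes pass either overlap was not counted.

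Peak height ranked the genes in part alike in both replicates. The fold of a peak over control is the authors' value and is compared only within a list. In the replicated list the highest fold over each gene was 23.9 in Atf3, 16.0 in Fosl2, 11.5 in Jun, 11.1 in Fos, 10.9 in Junb and 5.28 in Fosl1. The Atf3 peak was above 93.4% of the peaks of that list, the Fosl2 peak above 80.6%, that of Jun above 68.0%, that of Fos above 66.9%, that of Junb above 65.8% and that of Fosl1 above 33.6%. Replicate 1 gave 14.2 in Atf3, 9.76 in Fosl2, 8.37 in both Fos and Jun, 4.65 in Junb and 3.41 in Fosl1. Replicate 2 gave 28.0 in Atf3, 24.1 in Fosl2, 15.0 in Junb, 13.8 in Fos, 13.2 in Jun and 7.52 in Fosl1. Atf3, then Fosl2, led in every list and Fosl1 was below the others but for Batf. Fos, Jun and Junb changed places, so their order is not resolved.

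**Figure D3:**
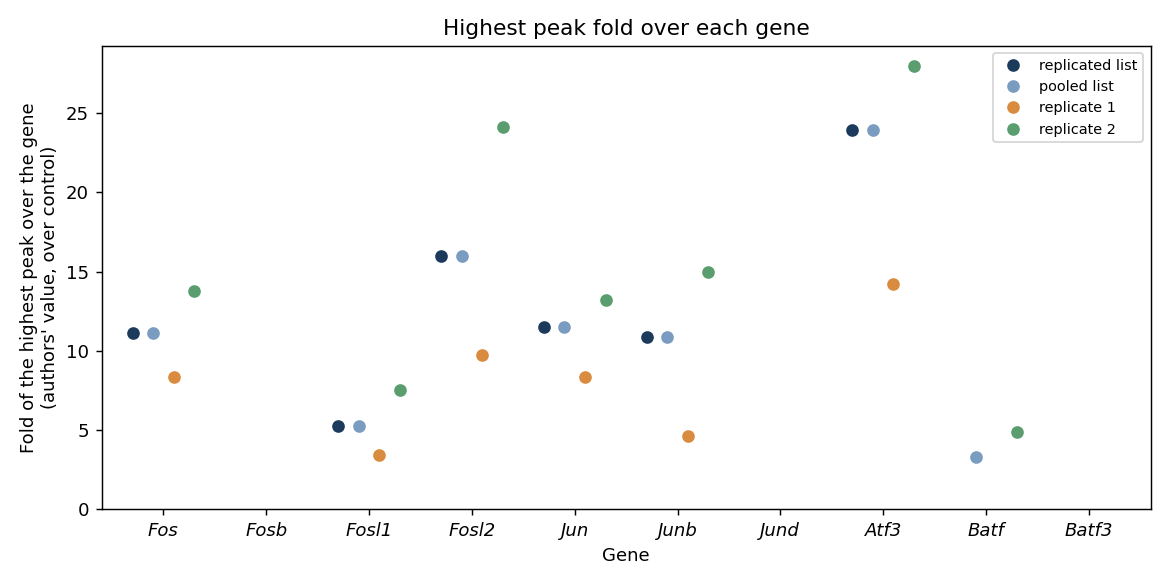
Highest fold over control of any peak on each gene, in each list (authors' value; no point where a list has no peak on the gene). Atf3 and Fosl2 hold the highest points of each list (23.9 and 16.0 in the replicated list). Fos, Jun and Junb sit at 10.9 to 11.5 in the replicated and pooled lists, and Junb is the lowest of the 3 in replicate 1 (4.65) and the highest in replicate 2 (15.0).

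The genes whose coverage along the 5′ end was most like that of each member were found from 60 bins of 500 bp, 20 in each of the replicate 1, replicate 2 and replicated lists, from 2 kb before the start to 8 kb after it. For Fos they were the ribosomal protein genes Rpl35a and Rps27, which differed by a mean of 2.42 and 2.59 percentage points of coverage per bin. For Jun they were Emp3 (4.03) and Rraga (4.55), and for Fosl2 Ppp1r3b (7.21) and Kat2b (7.95). Junb was nearest to Snapc4 (6.50), which had no base in replicate 1, and to Ppan (6.65). Fosl1 was nearest to Skp2 (0.323) and Prickle4 (0.627), sharing mostly empty bins. Mean coverage over the bins was 61.3% in Fosl2, 32.4% in Fos, 31.0% in Jun, 18.8% in Junb and 7.89% in Fosl1. The differences are therefore not ranked between members. The bins ran on past a gene's end, so part of a match can lie outside the gene named. Prickle4 is 6220 bp long and had no covered base in any list. Rps27 is 1130 bp long and Rraga 1618 bp. The bins of Atf3 were empty, since they follow its outer start, and 13071 genes tied with it.

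Other immediate early genes, other bZIP genes and genes of the upstream pathway were listed beside these 10. Each list is a description of counts. Maff is in both the immediate early and the bZIP list. Of 26 other immediate early genes, 14 were marked (53.8%), beside 30.3% of all coding genes. The median over the 26 was 523.5 bp of the first 3 kb covered, against 0 bp over all coding genes and 0 bp over the 10. The most covered of the marked genes were the zinc finger gene Klf6 (8587 bp), Myc (4069 bp) and Zfp36 (3175 bp), whose product destroys inflammatory mRNAs. Egr1, Egr2 and Egr3, immediate early zinc finger factors, had no base under the replicated list. In replicate 1, 10 of the 26 were marked, beside 27.2% of all coding genes, and in replicate 2, 17, beside 35.6%.

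Of 35 other bZIP genes, 23 were marked (65.7%), beside 30.3% of all coding genes. The median over the 35 was 1529 bp of the first 3 kb covered. The most covered of the marked genes were the unfolded protein sensor gene Atf6 (36893 bp), the repressor gene Bach1 (32192 bp) and Nfe2l2 (29013 bp), the regulator of antioxidant genes. Atf5 and Creb3l2 had no covered base in the replicated list, and Atf5 had 1519 bp in replicate 2. Creb5 was unmarked at its outer start with 24239 bp covered further in.

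Of 23 genes of the kinase and serum response factor pathway that switches on Fos and Jun, 20 were marked (87.0%). The share of all coding genes was 30.3%, and the median over the 23 was 2502 bp. The most covered of the marked genes were the coactivator genes Mrtfa (151329 bp, overlapping the coding gene Sgsm3) and Mrtfb (47865 bp), and the kinase gene Mapkapk2 (40757 bp). Srf, which encodes serum response factor, had 1955 bp covered, and the kinase gene Mapk14 had 33377 bp. The unmarked ones were Map2k6, with no covered base, and Rps6ka1 and Rps6ka3, with 6421 and 25608 bp covered at inner positions. These differences between lists were not tested.

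**Figure D4:**
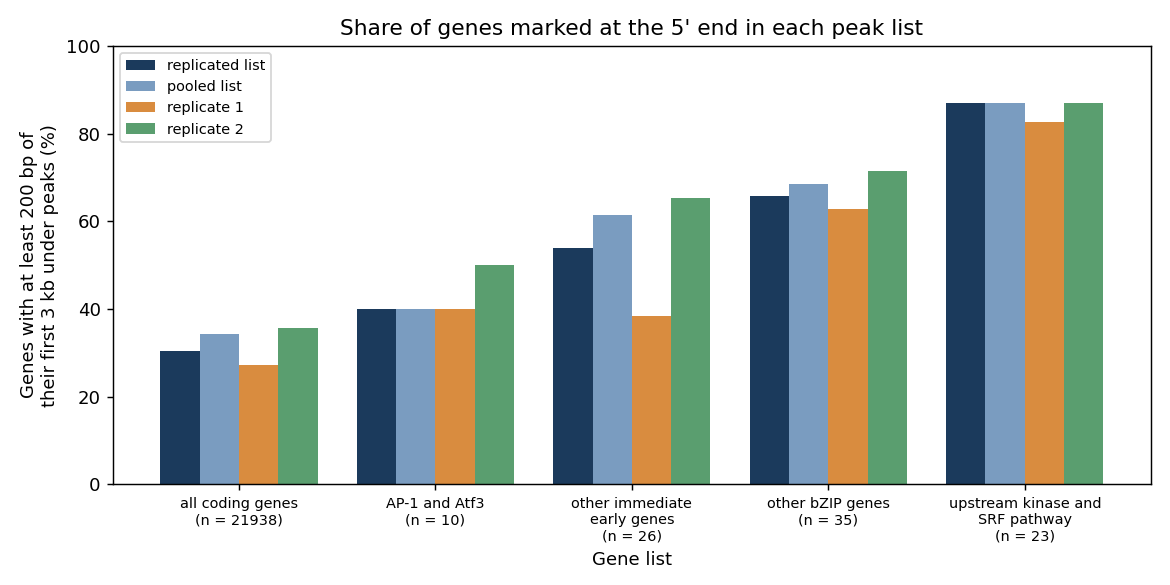
Percent of genes marked at the 5′ end in each peak list, for all coding genes, the 10 AP-1 and Atf3 genes and the 3 other lists (number of genes under each name; bars start at 0). In the replicated list the shares are 30.3%, 40.0%, 53.8%, 65.7% and 87.0% from left to right.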

How the data were processed

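The 4 peak lists, on mm10 per the deposited notes, were used. Not given in the sources used here were the aligner, the peak caller, the thresholds and how the replicated list was made. The fold of each peak over control and its −log10 q are values deposited by the authors. The q was used only to count peaks above 0.05 (5, 9, 12 and 3 in the replicate 1, replicate 2, pooled and replicated lists). Summit offsets were taken as deposited. Gene positions came from GENCODE M21 and sequence from RefSeq GRCm38.p6. Coverage was counted with Python 3.11.15 and pysam 0.24.0 after merging the peaks of a list, and the code was checked on simulated intervals. No statistical test was run.

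The members and lists were chosen with earlier results of these data known. Named genes were all 10 members, their coding neighbours within 10 kb, for each other list the 3 marked members with most covered bases and the first 3 unmarked, and the 2 genes nearest in profile to each member. Srf and Mapk14 were named after their values were seen. Cyr61, Mkl1 and Mkl2 were matched by their present symbols Ccn1, Mrtfa and Mrtfb, and the longer of the 2 records of Ddit3 was used. Alternatives were the other lists, peaks at or above the median fold, other minimum overlaps, other 5′ ends and the whole gene. Only peak lists were analysed.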

Additional observations from a re-analysis of the deposited data

How the results depend on the processing

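The number of AP-1 and Atf3 genes marked was 4 of 10 in the main count and ran from 3 to 6 over the alternatives. It was 3 when peaks under the median fold (7.37) were dropped, where Fosl2 was lost because its first block has a fold of 7.29, and 6 over whole genes. It stayed at 4 with minimum overlaps of 1 bp and 1000 bp. The share of all coding genes also moved little, to 30.7% and 28.7%. Dropping those peaks also left 8 of 26 other immediate early genes and 22.3% of all coding genes marked. Members with a peak shared by the replicates fell from 6 to 3 of 10 when at least 50% of both peaks had to overlap. Fos was among those lost, and the share of all coding genes was not counted under either rule. Of 40 recounts of covered bases in single members, 32 moved by no more than 1 SD of the 2 replicates and 8 by more. Those 8 were Fosl1 (251 bp), Junb (470 bp), Jun (2309 bp) and Fosl2 (7532 bp) without replicate 2, Fos (3138 bp) and Batf (3895 bp) without replicate 1, and Fosl1 (0 bp) and Fosl2 (8182 bp) without peaks under the median fold. The SD came from the same 2 replicate values that were set against it. Fosb, Jund and Batf3 had no base to move, and the pooled list equalled the replicated list for every member but Batf. The 32 recounts that stayed are therefore no measure of stability. Depth is unknown, so how far it limits replicate 1 was not tested.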

Other observations

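Several neighbours of these genes carried H3K79me2. Upstream of Atf3, the long non-coding RNA gene D730003I15Rik had 1493 of its 1687 bp under the replicated list, 676 bp in replicate 1 and 1542 bp in replicate 2. Its block began 194 bp after its own start and ran on to 3373 bp, past its end. Beyond Fosl1, Fibp was marked with 1247 bp covered, 577 bp in replicate 1 and 1277 bp in replicate 2, and Ctsw next to it had no base. Prdx2, beside Junb, had 1278 bp covered, while Rtn2 near Fosb, Iqcn near Jund, Gm49661 near Junb and Fam71a near Atf3 had none. Rnaseh2a near Junb had 461 bp under the replicated list and none under the pooled list.

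On chromosome 12, Fos and Batf lie 209 kb apart with another bZIP gene, Jdp2, between them, 122 kb from Fos and 46.8 kb from Batf. Jdp2, which encodes a repressor that pairs with Jun proteins, was marked with 1107 bp covered in the replicated list, 383 bp in replicate 1 and 7412 bp in replicate 2. Batf3 and Atf3 lie 61.4 kb apart on chromosome 1, where Batf3 had no base in any list and Atf3 had 9764 bp. Among the other immediate early genes, Ier2, Nr4a2 and Trib1 were marked in the replicated list with no base in replicate 1, and had 1281, 1608 and 5342 bp in replicate 2. Jdp2 and these 3 were named after their values were seen.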
